A study of Homo sapiens with 18 samples.

Results

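The genes described here are 10 that bring amino acids into cells or serve such carriers: SLC6A14, SLC7A11, SLC7A5, SLC3A2, SLC1A5, SLC38A1, SLC38A2, SLC7A2, SLC1A4 and CLTRN. They were taken by gene symbol from the annotation of the array's probe sets and are 10 of the 18404 genes measured. The set was chosen by function around SLC6A14 and with earlier results of these arrays known: the measured change of SLC6A14 between the groups was among the values that chose it. The values of SLC6A14 are therefore given as a description with no test, and the tests below cover the other 9 genes.

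The cells were MCF10A, a non-tumorigenic human breast epithelial cell line in long use, and their RNA was read on 18 Affymetrix arrays in 6 groups of 3. Cells labelled shLATS1+2 carried hairpins against LATS1 and LATS2 and received a control cDNA, and cells labelled shLATS1B carried a hairpin against LATS1 and received the same control cDNA. The other 4 groups carried the non-targeting hairpin shNT and received YAP/TAZ plus ESR1 cDNA, ESR1 cDNA, YAP/TAZ cDNA or the control cDNA. LATS1 and LATS2 are Hippo pathway kinases that restrain the co-activators YAP and TAZ, and ESR1 encodes estrogen receptor alpha. All groups had been infected with lentivirus at a multiplicity of 5, put through 4 days of puromycin at 1.5 µg/ml, left to recover for at least 7 days, transfected transiently and kept for 5 days in a medium that contained estrogen. The cDNAs were thus present only transiently, and the sources used here do not give the promoters of the vectors. Control arrays below means those with shNT and control cDNA, and the group that received both cDNAs is written YAP/TAZ + ESR1.

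Amino acid carriers differ in what they move and in what drives them. SLC6A14 uses sodium and chloride gradients to take up neutral and cationic amino acids, and in healthy tissue it is best known from epithelia such as airway and colon. SLC7A5 and SLC7A11 are light chains that reach the cell surface bound to the heavy chain SLC3A2: SLC7A5 exchanges large neutral amino acids such as leucine, and SLC7A11 takes up cystine in exchange for glutamate. SLC1A5, SLC38A1 and SLC38A2 carry glutamine, and these and SLC1A4 carry alanine, serine and other small neutral amino acids. SLC7A2 carries arginine, lysine and ornithine. CLTRN (collectrin, formerly TMEM27) is not a carrier itself: in mouse kidney it is needed for carriers of the SLC6 family to reach the membrane.

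The stretches of DNA just before the starts of SLC6A14 and CLTRN are shown because these 2 genes differed most between groups. Each line gives the 250 bases before the start of the gene, on the gene's strand, from RefSeq on GRCh38.p14, and capitals mark the AP-1 element TGANTCA, which reads the same on both strands.
SLC6A14, chrX:116436356-116436605, plus strand: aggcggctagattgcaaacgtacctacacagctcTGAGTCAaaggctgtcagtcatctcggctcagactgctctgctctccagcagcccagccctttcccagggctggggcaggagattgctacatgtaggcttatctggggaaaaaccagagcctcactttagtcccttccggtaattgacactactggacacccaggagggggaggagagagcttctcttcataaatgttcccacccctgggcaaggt
CLTRN, chrX:15664806-15665055, minus strand: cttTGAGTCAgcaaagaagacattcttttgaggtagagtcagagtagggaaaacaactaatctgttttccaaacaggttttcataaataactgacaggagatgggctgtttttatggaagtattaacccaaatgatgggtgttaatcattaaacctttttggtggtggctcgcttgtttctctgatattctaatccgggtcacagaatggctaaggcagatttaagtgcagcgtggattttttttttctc
Counting the base just before the start as -1, the match ran from -216 to -210 in SLC6A14 and from -247 to -241 in CLTRN. Promoters of 8 of the 10 genes were searched, each at its first listed start, and those of SLC3A2 and SLC38A1 also held an AP-1 element, so 4 of 8 held it against 6.57% of 35116 promoters of the same length. The AP-1 and TATA letters were chosen after the first matches had been seen. The antioxidant response element TGACNNNGC was found in 1 of the 8, SLC3A2, where it overlaps the AP-1 element, against 10.9% of all promoters. The TATA box TATAAA was found in 1 of the 8, SLC38A1, against 10.7%. The other motifs searched on both strands were the C/EBP-ATF element TGATGNAAN, the estrogen response element and the TEAD element GGAATG, and none of the 8 windows held any of them, against 3.13%, 0.0399% and 11.9% of all promoters. A match of letters is a description and shows no binding.

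All values below are the log2 intensities that the authors deposited, 1 per probe set and array. LATS1 lay between 7.57 and 7.85 in the 6 hairpin arrays and had a mean of 8.86 in the control arrays. LATS2, in contrast, averaged 7.82 in the arrays labelled shLATS1+2 and 7.73 in the control arrays (adjusted p = 0.37), so the second target of that label was not lower. YAP1 averaged 10.79 in the YAP/TAZ arrays and 10.84 in the control arrays, and WWTR1, which encodes TAZ, averaged 9.44 in the YAP/TAZ arrays and 9.57 in the control arrays. In the YAP/TAZ + ESR1 arrays YAP1 averaged 10.88, and WWTR1 averaged 9.99, 0.42 above control (adjusted p = 0.0015), but WWTR1 was also 0.43 above control with shLATS1B (adjusted p = 0.0015), which came without YAP/TAZ cDNA. Whether these probe sets cover the transfected cDNAs was not analysed here. ESR1 averaged 6.40 in the shLATS1+2 arrays, 6.37 in the shLATS1B arrays, 6.03 in the YAP/TAZ + ESR1 arrays, 6.47 in the ESR1 arrays and 5.52 in the control arrays, so its probe set was also higher with the hairpins, which came without ESR1 cDNA. The basal epithelial markers measured (5 of the 8 listed) all stood above the median gene in every group, and the 3 leukocyte markers measured stood under the dim level in every group. That level, 5.21, is the value under which 30% of genes have their mean over the arrays. Of the 3 endothelial markers CDH5 and VWF were also under it in every group, and PECAM1 was not, with a group mean of up to 6.58. The 3 fibroblast markers had group means between 5.15 and 6.56. The labels name no culture, day or batch for a replicate, so batch and group cannot be told apart. Each p-value therefore reflects the spread among arrays that may be technical repeats.

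SLC6A14 was near the bottom of the range in 3 groups and high in the YAP/TAZ + ESR1 arrays, with both hairpin groups between. Its log2 intensity (probe set 8169504, chromosome X) was 6.25, 6.30 and 5.95 in the shLATS1+2 arrays, 6.97, 7.26 and 7.11 in the shLATS1B arrays and 9.44, 9.65 and 9.60 in the YAP/TAZ + ESR1 arrays. It was 5.39, 5.16 and 5.33 in the ESR1 arrays, 5.26, 4.99 and 5.37 in the YAP/TAZ arrays and 5.07, 4.99 and 5.16 in the control arrays. No array of the YAP/TAZ + ESR1 group or of the hairpin groups overlapped the arrays of the other 3 groups, which all lay between 4.99 and 5.39. The mean of 9.56 ± 0.11 in the YAP/TAZ + ESR1 arrays stood 4.49 above the control mean of 5.07 ± 0.083 (SD, n = 3 each), a 22.5-fold difference in intensity. Because the control mean lies under the dim level, the difference is also given as at least 20.5-fold, with the control set at 5.21. In bulk RNA, fewer cells that express a gene and less RNA per cell cannot be told apart.

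Each cDNA alone left SLC6A14 close to the control level. The ESR1 mean was 0.22 above control and the YAP/TAZ mean 0.13 above it, with SDs of 0.12 in the ESR1 arrays, 0.20 in the YAP/TAZ arrays and 0.083 in the control arrays. With ESR1 present, the YAP/TAZ cDNA was linked to a difference of 4.27 (19.3-fold), so the interaction value, the YAP/TAZ difference with ESR1 cDNA minus that without it, was 4.14. In the hairpin groups the mean was 6.17 ± 0.19 for shLATS1+2 and 7.11 ± 0.14 for shLATS1B (SD, n = 3 each), which is 1.09 and 2.04 above control. Over all settings tried, the difference of YAP/TAZ + ESR1 from control lay between 4.45 and 4.55. Many of these settings could not move it, such as the moderation, the replicate block and leaving out an array of another group.

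**Figure D1:**
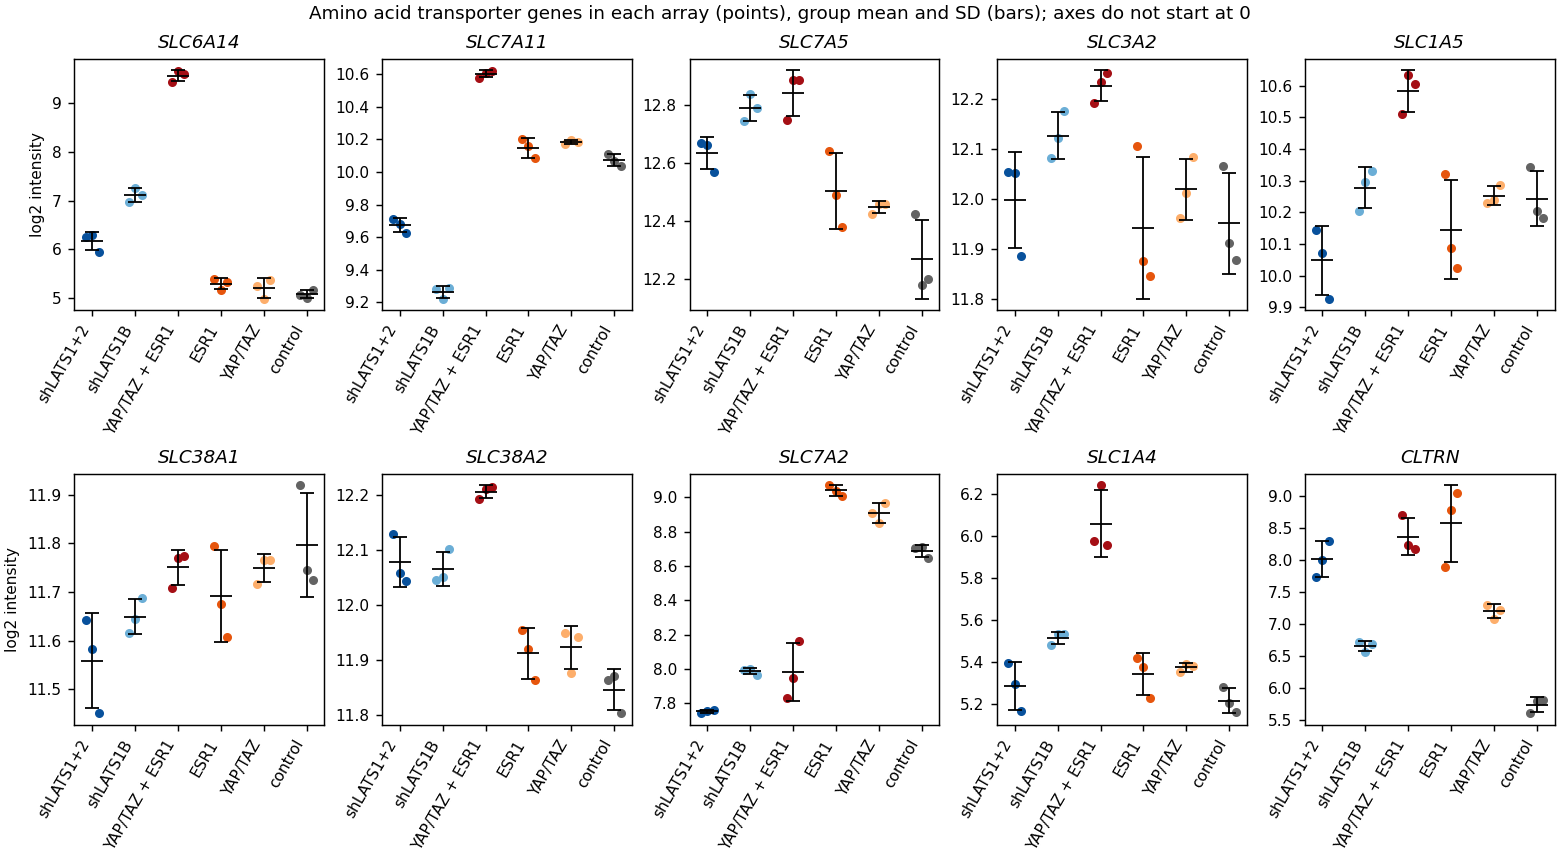
Log2 intensity of the 10 genes in each of the 18 arrays (points), with group means and SDs (bars, n = 3), 1 panel per gene with its own vertical axis, which does not start at 0. SLC6A14 reaches 9.44 to 9.65 in the YAP/TAZ + ESR1 arrays against 4.99 to 5.16 in the control arrays, and SLC7A2 forms a low and a high set of groups.

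CLTRN rose in all 5 groups set against the control arrays, and its highest mean was that of the ESR1 arrays. Its log2 intensity was 7.74, 7.99 and 8.30 in the shLATS1+2 arrays, 6.72, 6.57 and 6.69 in the shLATS1B arrays and 8.69, 8.23 and 8.17 in the YAP/TAZ + ESR1 arrays. It was 7.89, 8.77 and 9.03 in the ESR1 arrays, 7.31, 7.08 and 7.22 in the YAP/TAZ arrays and 5.61, 5.81 and 5.81 in the control arrays. The control arrays lay below every other array, while the shLATS1+2, YAP/TAZ + ESR1 and ESR1 arrays overlapped. The rise over control was 2.82 (7.07-fold) with ESR1 cDNA (limma adjusted p = 1.2e-07) and 1.46 (2.75-fold) with YAP/TAZ cDNA (adjusted p = 0.00035). It was 2.62 with both cDNAs (adjusted p = 7.7e-08), 2.26 with shLATS1+2 (adjusted p = 6.3e-07) and 0.91 with shLATS1B (adjusted p = 0.0045), each with a standard error of 0.22. The 3 ESR1 arrays spread more widely than any other group of this gene, with an SD of 0.60, and replicate 1 was the lowest of them.

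The YAP/TAZ and ESR1 cDNAs together did not add their single rises in CLTRN. Its mean was 8.36 in the YAP/TAZ + ESR1 arrays and 8.57 in the ESR1 arrays, a difference of -0.21 with a 95% interval of -0.66 to 0.25 (adjusted p = 0.56). The interaction was -1.66 ± 0.31 (SE, adjusted p = 0.0011), opposite in sign to that of SLC6A14. Without ESR1 replicate 1, the difference between the YAP/TAZ + ESR1 and ESR1 arrays was -0.54 and passed the test (adjusted p = 0.0099).

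SLC7A2, the carrier of cationic amino acids, fell in the groups in which SLC6A14 stood high. Its log2 intensity was 7.74, 7.76 and 7.76 in the shLATS1+2 arrays, 7.99, 8.00 and 7.97 in the shLATS1B arrays and 7.83, 7.94 and 8.16 in the YAP/TAZ + ESR1 arrays. It was 9.07, 9.04 and 9.01 in the ESR1 arrays, 8.91, 8.85 and 8.97 in the YAP/TAZ arrays and 8.70, 8.71 and 8.65 in the control arrays. The first 3 groups, between 7.74 and 8.16, lay wholly below the other 3, between 8.65 and 9.07. Against control, SLC7A2 fell by 0.94 with shLATS1+2 (limma adjusted p = 7.4e-09), by 0.70 with shLATS1B (adjusted p = 2.5e-07) and by 0.71 with both cDNAs (adjusted p = 1.6e-07). With ESR1 cDNA alone it rose by 0.35 (adjusted p = 0.00072) and with YAP/TAZ cDNA alone by 0.22 (adjusted p = 0.040). The last of these calls was lost when the arrays were centred on their medians (adjusted p = 0.17) and when any single control or YAP/TAZ array was left out (adjusted p between 0.055 and 0.16). The interaction was -1.28 ± 0.088 (SE, adjusted p = 3.0e-08). SLC7A2 was 1.06 lower in the YAP/TAZ + ESR1 arrays than in the ESR1 arrays, a 2.09-fold difference.

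SLC7A11, the cystine carrier, moved in opposite directions in the hairpin groups and in the YAP/TAZ + ESR1 arrays. Its log2 intensity was 9.71, 9.68 and 9.63 in the shLATS1+2 arrays, 9.28, 9.22 and 9.29 in the shLATS1B arrays and 10.58, 10.61 and 10.62 in the YAP/TAZ + ESR1 arrays. It was 10.20, 10.16 and 10.08 in the ESR1 arrays, 10.17, 10.19 and 10.19 in the YAP/TAZ arrays and 10.11, 10.06 and 10.04 in the control arrays. Both hairpin groups lay below all control arrays and the YAP/TAZ + ESR1 arrays above them, with no overlap. SLC7A11 fell by 0.40 with shLATS1+2 (limma adjusted p = 1.5e-06) and by 0.81 with shLATS1B (adjusted p = 3.0e-10), and it rose by 0.53 with both cDNAs (adjusted p = 3.4e-08), with a standard error of 0.041 each. Its differences with ESR1 cDNA (0.08) and YAP/TAZ cDNA (0.11) did not pass the test (adjusted p = 0.22 and 0.13). The interaction of 0.34 ± 0.058 (SE) passed (adjusted p = 0.00057).

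SLC3A2, the heavy chain that SLC7A11 and SLC7A5 share, spanned a narrow range. It lay between 11.85 and 12.25 over all 18 arrays and averaged 12.23 ± 0.031 in the YAP/TAZ + ESR1 arrays and 11.95 ± 0.10 in the control arrays (SD, n = 3 each). The difference of 0.27 passed the test (limma adjusted p = 0.0058), and it was the only one of the 5 comparisons with control in which SLC3A2 did. The value with shLATS1B was 0.17 (adjusted p = 0.083, but 0.029 without control replicate 1 and 0.031 without ESR1 replicate 1), and with shLATS1+2 it was 0.05 (adjusted p = 0.73).

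SLC7A5, the leucine exchanger, was among the brightest genes on the arrays and rose with either hairpin. Its log2 intensity was 12.67, 12.66 and 12.57 in the shLATS1+2 arrays, 12.75, 12.84 and 12.79 in the shLATS1B arrays, 12.75, 12.89 and 12.89 in the YAP/TAZ + ESR1 arrays and 12.42, 12.18 and 12.20 in the control arrays. Every array of these 3 groups stood above the highest control array. The rises were 0.37 with shLATS1+2 (limma adjusted p = 0.00082), 0.52 with shLATS1B (adjusted p = 2.6e-05) and 0.57 with both cDNAs (adjusted p = 7.3e-06), with a standard error of 0.070 each. Thus SLC7A5 and SLC7A11, which share the heavy chain SLC3A2, differed in sign in both hairpin groups, where SLC7A5 rose and SLC7A11 fell. With ESR1 cDNA alone SLC7A5 rose by 0.24 (adjusted p = 0.025), a call that was lost without ESR1 replicate 1 or 2 or control replicate 2 or 3 (adjusted p between 0.062 and 0.11), with centred arrays (adjusted p = 0.16) and with only these groups in the fit (adjusted p = 0.21). With YAP/TAZ cDNA alone the value was 0.18 (adjusted p = 0.17, or 0.030 without control replicate 1).

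Among the carriers of glutamine or small neutral amino acids, SLC38A2 and SLC1A4 rose with both cDNAs, and SLC38A1 did not. SLC38A2 was 12.13, 12.06 and 12.04 in the shLATS1+2 arrays, 12.04, 12.05 and 12.10 in the shLATS1B arrays, 12.19, 12.21 and 12.21 in the YAP/TAZ + ESR1 arrays and 11.86, 11.87 and 11.80 in the control arrays. These 3 groups lay above all control arrays. The rises in SLC38A2 were small and tight: 0.23 with shLATS1+2 (limma adjusted p = 0.00038), 0.22 with shLATS1B (adjusted p = 0.00060) and 0.36 with both cDNAs (adjusted p = 2.9e-06).

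SLC1A4 was close to the dim level in the control arrays and highest in the YAP/TAZ + ESR1 arrays. It was 5.40, 5.30 and 5.17 in the shLATS1+2 arrays, 5.48, 5.53 and 5.53 in the shLATS1B arrays, 5.98, 6.24 and 5.96 in the YAP/TAZ + ESR1 arrays and 5.28, 5.21 and 5.16 in the control arrays. The shLATS1+2 arrays overlapped the control arrays, and those of the other groups named did not. SLC1A4 rose by 0.84 with both cDNAs (limma adjusted p = 1.5e-07) and by 0.30 with shLATS1B (adjusted p = 0.0062). Its value with shLATS1+2 was 0.07 (adjusted p = 0.59).

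SLC1A5, the exchanger of glutamine, rose with both cDNAs by 0.34 (limma adjusted p = 0.0019), with means of 10.58 ± 0.065 in the YAP/TAZ + ESR1 arrays and 10.24 ± 0.088 in the control arrays (SD, n = 3 each). In the 4 other comparisons with control it ranged from -0.20 to 0.03, and none passed with all arrays. Without ESR1 replicate 1 the values with shLATS1+2 (-0.20, adjusted p = 0.021) and with ESR1 cDNA (-0.19, adjusted p = 0.046) passed, and the first also did without shLATS1+2 replicate 1 (adjusted p = 0.042). This gene has a second, dimmer probe set with group means between 6.07 and 6.46, which passed the test in 0 of the 9 comparisons. With the mean of both probe sets, the rise with both cDNAs was 0.20 and did not pass (adjusted p = 0.063), while the fall by 0.24 with shLATS1+2 did (adjusted p = 0.029). SLC38A1 averaged 11.56 ± 0.098 in the shLATS1+2 arrays and 11.80 ± 0.11 in the control arrays (SD, n = 3 each), a fall by 0.24 (adjusted p = 0.0083). That call was lost without control replicate 1 or shLATS1+2 replicate 3 (adjusted p = 0.051 and 0.053) and with only these groups in the fit (adjusted p = 0.059). Its difference with both cDNAs was -0.05, with a 95% interval of -0.18 to 0.084.

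**Figure D2:**
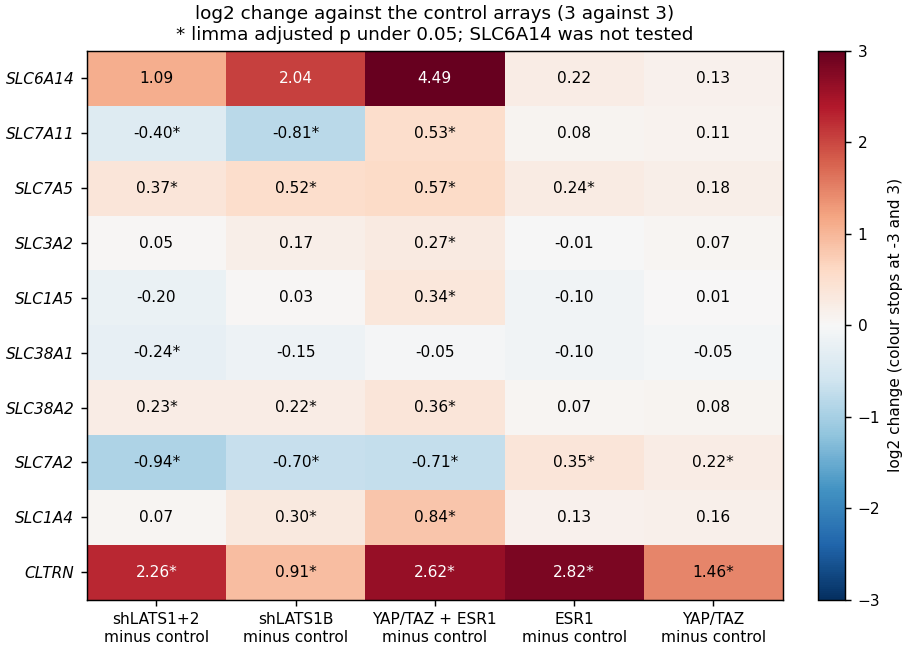
Differences in mean log2 intensity from the control arrays (3 arrays against 3) for the 10 genes (rows) in 5 groups (columns), with stars for a limma adjusted p under 0.05 and no test for SLC6A14. The YAP/TAZ + ESR1 column holds 7 rises and 1 fall among the 9 genes tested, and the YAP/TAZ column 2 rises.

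Counted over the 9 genes tested, calls against control were most with both cDNAs (8) and fewest with YAP/TAZ cDNA (2). With shLATS1+2, 3 genes rose (SLC7A5, SLC38A2 and CLTRN) and 3 fell (SLC7A11, SLC38A1 and SLC7A2), 6 calls beside 24.8% of all genes (11.8% higher and 13.0% lower). With shLATS1B, 4 rose (SLC7A5, SLC38A2, SLC1A4 and CLTRN) and 2 fell (SLC7A11 and SLC7A2), 6 calls beside 24.0% of all genes (12.4% higher and 11.6% lower). With both cDNAs, 7 rose and 1 (SLC7A2) fell, 8 calls beside 29.4% of all genes (14.7% higher and 14.7% lower), and SLC38A1 did not pass. With ESR1 cDNA, SLC7A5, SLC7A2 and CLTRN rose, 3 calls beside 18.9% of all genes (7.04% higher and 11.9% lower). With YAP/TAZ cDNA, SLC7A2 and CLTRN rose, 2 calls beside 7.00% of all genes (3.16% higher and 3.84% lower). The median difference of the 9 genes was 0.36 with both cDNAs, against a median of -0.0043 for all genes, and lay between 0.046 and 0.17 in the other 4 comparisons. These 5 comparisons share the 3 control arrays, so their agreement or disagreement is not independent, and the 9 genes were chosen with earlier results known. By mean over the arrays, SLC7A11, SLC1A5, SLC38A1, SLC38A2, SLC3A2 and SLC7A5 reached or exceeded 90.6% to 99.8% of all genes. SLC1A4, CLTRN and SLC7A2 did so for 36.2% to 73.0%. The 9 genes and all genes were not matched for brightness, and its part in these counts was not tested.

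The YAP/TAZ + ESR1 arrays also differed from the arrays of either cDNA alone in most of the 9 genes. Between the YAP/TAZ + ESR1 and YAP/TAZ arrays 8 genes passed, 7 higher and SLC7A2 lower, beside 22.7% of all genes (12.3% higher and 10.5% lower). The call for SLC3A2 in this comparison (0.21, limma adjusted p = 0.041) was lost without any one of the YAP/TAZ + ESR1 arrays (adjusted p between 0.056 and 0.12). It was lost without YAP/TAZ replicate 1 or 2 (adjusted p = 0.15 and 0.098) and without shLATS1B replicate 2 (adjusted p = 0.053). The same held with the replicate block (adjusted p = 0.052), with arrays centred on their medians (adjusted p = 0.075) and with every probe set as a feature (adjusted p = 0.066). With the mean of its probe sets, SLC1A5 had 0.17 in this comparison and did not pass (adjusted p = 0.12). Between the YAP/TAZ + ESR1 and ESR1 arrays 7 passed, 6 higher and SLC7A2 lower, beside 29.1% of all genes (16.2% higher and 12.9% lower). SLC38A1 passed in neither, with 0.0013 (95% interval -0.13 to 0.13) and 0.058 (95% interval -0.072 to 0.19).

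**Figure D3:**
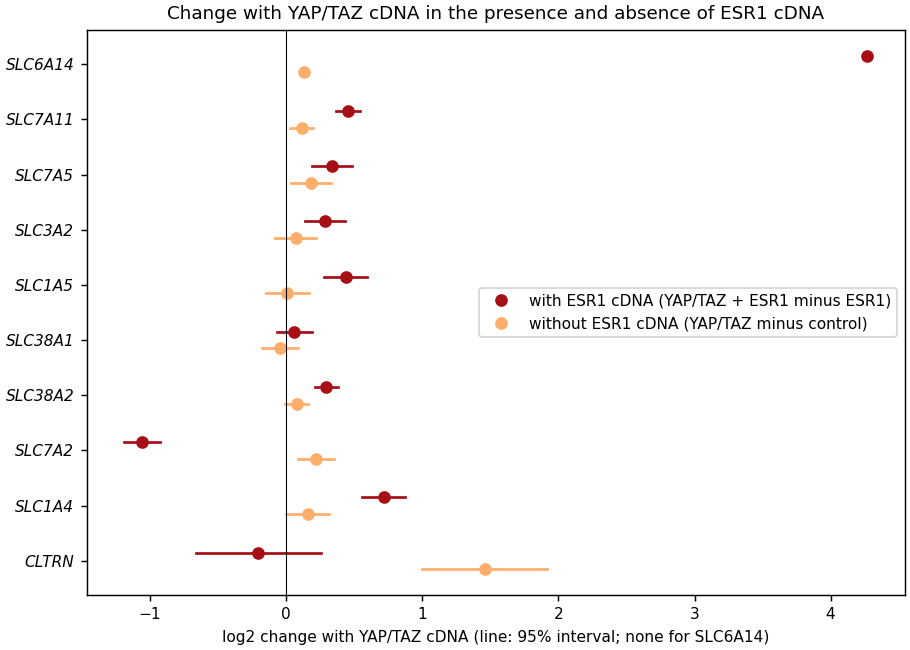
Log2 difference linked to the YAP/TAZ cDNA for each gene, in the presence of ESR1 cDNA (dark points, YAP/TAZ + ESR1 minus ESR1) and in its absence (light points, YAP/TAZ minus control), with 95% intervals for the 9 genes tested. The points of SLC6A14 (4.27 and 0.13), SLC7A2 (-1.06 and 0.22) and CLTRN (-0.21 and 1.46) lie far apart.

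The interaction itself passed for 6 of the 9 genes, beside 19.1% of all genes (11.4% above 0 and 7.68% below). It was above 0 for SLC1A4 (0.56 ± 0.10, limma adjusted p = 0.0012), SLC1A5 (0.43 ± 0.10, adjusted p = 0.0083), SLC7A11 and SLC38A2 (0.22 ± 0.057, adjusted p = 0.014), each ± 1 SE. It was below 0 for SLC7A2 and CLTRN, as given above. For SLC7A5 (0.16, 95% interval -0.054 to 0.37) and SLC38A1 it did not pass, and SLC3A2 passed only without ESR1 replicate 1 (0.30, adjusted p = 0.015). With the mean of its probe sets, SLC1A5 had 0.28 and did not pass (adjusted p = 0.078).

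The shLATS1+2 and shLATS1B arrays differed in 2 of the 9 genes, both higher with shLATS1+2, beside 0.321% of all genes (0.141% higher and 0.179% lower). SLC7A11 was 0.41 higher in the shLATS1+2 arrays (limma adjusted p = 6.3e-05) and CLTRN 1.35 higher (adjusted p = 0.0074). The call for CLTRN was lost without shLATS1+2 replicate 3 or shLATS1B replicate 2 (adjusted p = 0.055 each), and SLC7A2 (-0.23, adjusted p = 0.18) passed without YAP/TAZ + ESR1 replicate 3 (adjusted p = 0.028). SLC6A14 stood 0.95 lower in the shLATS1+2 arrays than in the shLATS1B arrays, with no overlap. LATS2 did not pass between these groups (-0.05, adjusted p = 0.79), and what sets their hairpins apart was not tested.

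The 41 other amino acid transporters measured, a list chosen with earlier results known, gave calls in both directions. With shLATS1+2, 2 rose and 6 fell (24.8% of all genes were called), and with shLATS1B, 2 rose and 6 fell (24.0% of all genes). With both cDNAs, 6 rose and 5 fell (29.4% of all genes), with ESR1 cDNA 5 rose and 3 fell (18.9%), and with YAP/TAZ cDNA 2 rose and 1 fell (7.00%). Their median difference with both cDNAs was -0.0019, against -0.0043 for all genes. SLC1A3, which takes up glutamate and aspartate, was between 9.72 and 9.85 in the shLATS1+2 arrays, between 9.74 and 9.88 in the shLATS1B arrays, between 9.71 and 9.86 in the YAP/TAZ + ESR1 arrays and between 8.38 and 8.64 in the control arrays. It rose by 1.28, 1.32 and 1.26 in those 3 groups (limma adjusted p = 5.8e-09, 3.7e-09 and 4.6e-09). SLC6A9, a glycine carrier of the same family as SLC6A14, rose by 1.23 with both cDNAs (adjusted p = 3.5e-07). It was 8.24 to 8.53 in the YAP/TAZ + ESR1 arrays and 7.05 to 7.30 in the control arrays. With ESR1 cDNA alone SLC6A9 rose by 0.43 (adjusted p = 0.015). SLC43A2, a carrier of large neutral amino acids, rose in all 5 groups, by 0.99 with shLATS1+2 (adjusted p = 1.9e-08), 0.96 with shLATS1B (adjusted p = 2.9e-08), 0.84 with both cDNAs (adjusted p = 1.1e-07), 0.70 with ESR1 cDNA (adjusted p = 3.4e-06) and 0.52 with YAP/TAZ cDNA (adjusted p = 0.00015). SLC36A1, the lysosomal proton-coupled carrier, fell by 0.72 with shLATS1+2 (adjusted p = 1.3e-06) and by 0.50 with shLATS1B (adjusted p = 7.5e-05).

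Genes of the amino acid response, through which the factor ATF4 raises carriers and synthesis enzymes when amino acids are short, included large rises with both cDNAs. Of the 24 measured (of 25 listed), 13 rose and 2 fell with both cDNAs, where 14.7% of all genes were higher and 14.7% lower. With shLATS1+2, 8 rose and 6 fell (11.8% of all genes higher and 13.0% lower), and with shLATS1B, 8 rose and 7 fell (12.4% higher and 11.6% lower). With ESR1 cDNA, 8 rose and 5 fell (7.04% higher and 11.9% lower), and with YAP/TAZ cDNA, 6 rose and 2 fell (3.16% higher and 3.84% lower). The median difference with both cDNAs was 0.27. DDIT3, a stress-induced transcription factor, was 8.34, 7.87 and 7.97 in the YAP/TAZ + ESR1 arrays and 5.51, 5.71 and 5.55 in the control arrays, a rise of 2.47 (5.55-fold, limma adjusted p = 1.1e-09). It rose by 1.60 with ESR1 cDNA (adjusted p = 9.2e-07) and by 1.13 with YAP/TAZ cDNA (adjusted p = 8.1e-05). DDIT3 also rose in the hairpin groups, by 0.95 with shLATS1+2 (adjusted p = 9.9e-05) and by 0.76 with shLATS1B (adjusted p = 0.00077). CHAC1, which degrades glutathione, was 7.80, 7.73 and 7.61 in the YAP/TAZ + ESR1 arrays and 6.13, 5.79 and 5.82 in the control arrays. This was a rise of 1.80 (adjusted p = 4.5e-09). CHAC1 also rose by 1.35 with ESR1 cDNA (adjusted p = 6.1e-07) and by 0.80 with YAP/TAZ cDNA (adjusted p = 0.00033). It averaged 6.30 in each hairpin group and 5.91 in the control arrays. SESN2, a leucine sensor, rose by 1.10 with both cDNAs (adjusted p = 7.3e-10) and NUPR1, a stress-response factor, by 1.19 (adjusted p = 8.5e-10). Smaller rises of SESN2 were called with shLATS1B (0.54, adjusted p = 5.3e-06), ESR1 cDNA (0.43, adjusted p = 0.00014) and YAP/TAZ cDNA (0.40, adjusted p = 0.00050). In the shLATS1+2 arrays SESN2 averaged 7.64, also above the control mean of 7.28. It was not among the up to 4 genes of largest change there. ALDH1L2, a mitochondrial folate enzyme, fell by 1.35 with shLATS1+2 (adjusted p = 9.1e-08) and by 1.02 with shLATS1B (adjusted p = 2.3e-06). PHGDH, the first enzyme of serine synthesis, rose by 0.42 with shLATS1+2 (adjusted p = 0.0086) and by 0.78 with shLATS1B (adjusted p = 4.8e-05). The highest mean of PHGDH was that of the YAP/TAZ + ESR1 arrays, 10.35, beside 10.25 with shLATS1B and 9.47 in the control arrays.

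Genes of glutathione synthesis and other cystine use, downstream of the uptake by SLC7A11, gave calls in both directions. Of the 9 measured (of 11 listed), 5 rose and 3 fell with shLATS1+2 (24.8% of all genes called), 5 rose and 4 fell with shLATS1B (24.0%) and 5 rose and 2 fell with both cDNAs (29.4%). With ESR1 cDNA 0 rose and 1 fell (18.9% of all genes called), and none passed with YAP/TAZ cDNA by limma (7.00%). GCLC and GCLM, the subunits of the enzyme that starts glutathione synthesis, fell by 0.67 and 0.39 with shLATS1+2 (limma adjusted p = 0.00019 and 0.0067). With shLATS1B they fell by 0.62 and 0.52 (adjusted p = 0.00035 and 0.00073). GCLC was also the gene of this list that fell with ESR1 cDNA, by 0.55 (adjusted p = 0.0020). GSS, which completes glutathione, rose by 0.39 with shLATS1+2 (adjusted p = 0.00017), 0.47 with shLATS1B (adjusted p = 2.7e-05) and 0.50 with both cDNAs (adjusted p = 9.3e-06). TXNRD1, a thioredoxin reductase, rose by 0.61 with both cDNAs (adjusted p = 1.7e-06) and by 0.42 with shLATS1+2 (adjusted p = 0.00013). With both cDNAs CHAC2 fell by 0.57 (adjusted p = 0.0071) and GGCT by 0.52 (adjusted p = 0.00011). Of the 23 genes measured (of 24 listed) through which mTORC1 senses amino acids, 4 rose and 4 fell with shLATS1+2 (24.8% of all genes called), 4 rose and 5 fell with shLATS1B (24.0%) and 3 rose and 3 fell with both cDNAs (29.4%). With ESR1 cDNA 2 rose and 1 fell (18.9% of all genes called), and none passed with YAP/TAZ cDNA by limma (7.00%). MLST8, a subunit of mTORC1, fell by 0.64 with shLATS1+2 (adjusted p = 7.3e-09) and by 0.58 with shLATS1B (adjusted p = 2.7e-08).

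**Figure D4:**
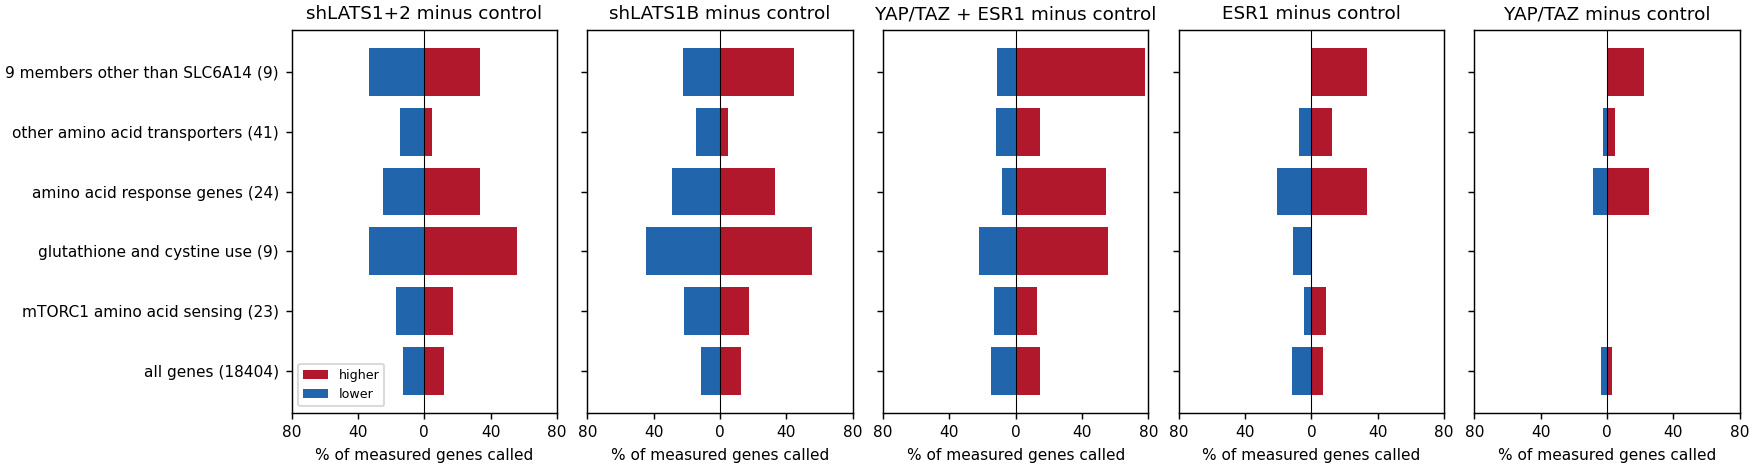
Percentage of measured genes called higher (right of 0) and lower (left of 0) against the control arrays, for the 9 genes tested, 4 related lists and all 18404 genes, with 1 panel per group. With YAP/TAZ + ESR1, 7 of the 9 genes and 13 of the 24 amino acid response genes were called higher, and 6 of the 41 other transporters. The lists were not matched for brightness.

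The genes whose group means were most like those of SLC6A14, by the root mean square difference over the 6 group means after each gene was centred, were GPX2 (0.77), FBXO32 (0.80), LCN2 (0.82), GDF15 (0.87) and AKR1B10 (0.88). GPX2 is a glutathione peroxidase of epithelia, LCN2 an iron-siderophore binding protein and GDF15 a secreted stress cytokine. GPX2 averaged 7.06 in the shLATS1+2 arrays, 6.13 in the shLATS1B arrays, 8.58 in the YAP/TAZ + ESR1 arrays, 5.48 in the ESR1 arrays, 5.32 in the YAP/TAZ arrays and 5.94 in the control arrays, so it did not share the order of the hairpin groups with SLC6A14. The distances from SLC6A14 were large beside its own SDs of 0.083 to 0.20, so none of the 5 followed it within replicate spread. For SLC7A11 the nearest were PCSK5 (0.14), ASNS (0.15), CPEB4 (0.15), MBLAC2 (0.17) and OTUD4 (0.17). These distances were also large beside the SDs of SLC7A11, 0.012 to 0.060, so none of these 5 followed it within replicate spread. ASNS, asparagine synthetase and a textbook target of the amino acid response, averaged 7.44 in the shLATS1+2 arrays, 7.33 in the shLATS1B arrays, 8.25 in the YAP/TAZ + ESR1 arrays, 7.90 in the ESR1 arrays, 7.91 in the YAP/TAZ arrays and 7.66 in the control arrays.

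**Figure D5:**
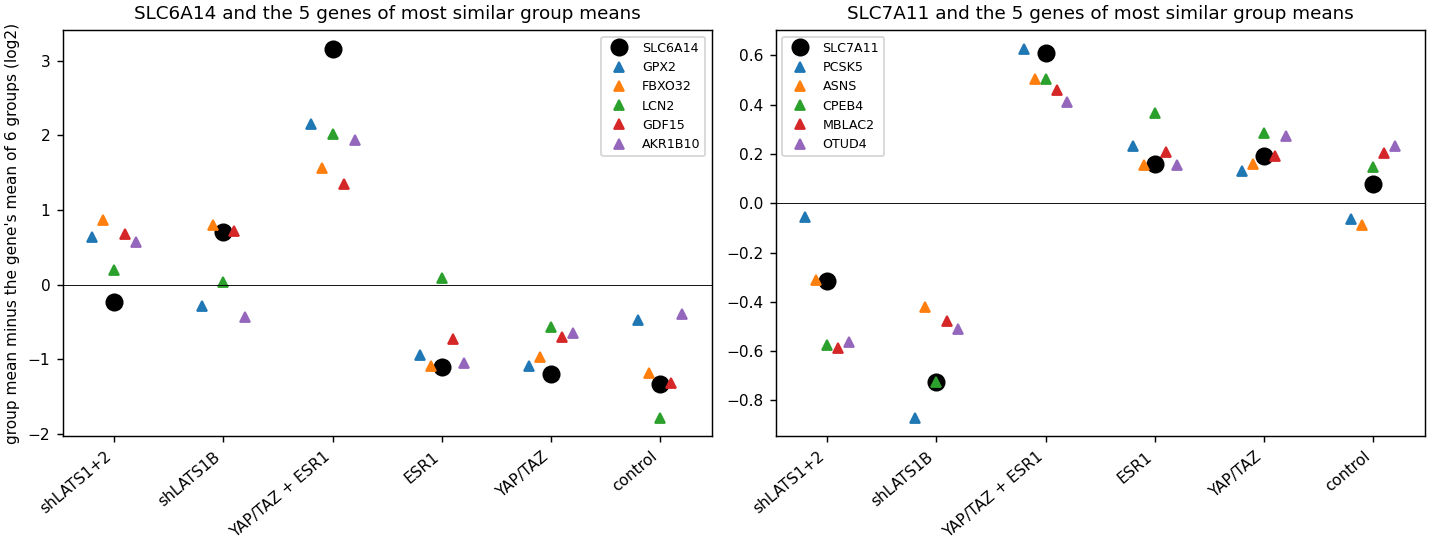
Group means of SLC6A14 (left) and SLC7A11 (right), each with its 5 nearest genes (triangles), as log2 differences from each gene's own mean over the 6 groups. SLC6A14 stands above its neighbours in the YAP/TAZ + ESR1 group. The neighbours of SLC7A11 stay within a narrower band around it, which is still wide beside its SDs.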

How the data were processed

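Per the labels' protocols, 100 ng of total RNA per sample was processed for Affymetrix whole-transcript arrays. The deposited table holds the authors' log2 intensities of 32321 probe sets. The R package affy is named in the submitters' processing notes. Background correction and normalization were not given in the sources used here. Medians of the arrays ranged from 5.49 to 5.62. Precision is limited by the number of arrays. Probe sets with 1 gene symbol (19158, with 1388 having several and 11775 none) were kept, 1 per gene at the highest mean, giving 18404 genes. The 10 genes had 1 probe set each except SLC1A5.

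All 18 arrays entered 1 fit with a mean per group (R 4.3.3, limma 3.58.1), with two-sided tests and Benjamini-Hochberg adjustment over all genes, and a gene was called at an adjusted p under 0.05. The fit was tested on simulated data. Alternatives were scaling, probe set choice, a filter on dim genes, moderation, a replicate block, fits on fewer groups and leaving out each array. The genes named are the 10, those of the label checks, up to 4 called genes of largest change per list and comparison, and the 5 nearest genes of SLC6A14 and SLC7A11. These members and lists were chosen with earlier results of these data known. Arrays of the same replicate number did not deviate together as a rule: 13 of 45 pairs of such arrays correlated above 0.1, with a median of -0.083. Single pairs ranged widely, from -0.69 to 0.63.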

Additional observations from a re-analysis of the deposited data

Results flagged for a closer look

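By the test of the interaction in limma, the difference linked to the YAP/TAZ cDNA was not the same with and without ESR1 cDNA for 6 of the 9 genes. The interaction passed for 19.1% of all genes. YAP1 and WWTR1 themselves were not higher in the YAP/TAZ arrays than in the control arrays, and batch and group cannot be told apart. The interaction was -1.66 for CLTRN and -1.28 for SLC7A2. It was 0.56 for SLC1A4, 0.43 for SLC1A5, 0.34 for SLC7A11 and 0.22 for SLC38A2, all on the log2 scale. With the mean of its probe sets, SLC1A5 had 0.28 and did not pass (adjusted p = 0.078).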

How the results depend on the processing

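Over all settings, 2106 log2 changes of the 9 genes were recomputed, of which 49 changed their call: 39 were lost, 10 were gained and 0 changed sign. A change of sign was counted only where a value was called. Many settings could not move the log2 change itself, only its adjusted p. Among them were the moderation, the replicate block and leaving out an array of a group not compared. The number of the 9 genes called for YAP/TAZ against control was 1 and not 2 with arrays centred on their medians, with every probe set as a feature, with trended and robust moderation and with the replicate block, and lay between 1 and 2 when single arrays were left out. For shLATS1+2 against shLATS1B it lay between 1 and 3 when single arrays were left out. The replicate block otherwise ended only the call of SLC3A2 between the YAP/TAZ + ESR1 and YAP/TAZ arrays (adjusted p = 0.052), and replicate numbers are shared by number only. Counts over all genes moved by over 1.5 times in 5 comparisons. For ESR1 against control, 3487 became 1126 with only those groups in the fit, 5461 without ESR1 replicate 1 and 2299 without ESR1 replicate 2. For YAP/TAZ + ESR1 against ESR1, 5359 became 3273 with only those groups in the fit. For YAP/TAZ against control, 1289 became 848 without YAP/TAZ replicate 2. For the interaction, 3512 became 5607 without ESR1 replicate 1. For shLATS1+2 against shLATS1B, 59 lay between 33 and 110 when single arrays were left out. Among the lists, calls of amino acid response genes fell to 4 of 24 for YAP/TAZ against control with centred arrays, to 6 for ESR1 against control and to 9 for YAP/TAZ + ESR1 against ESR1 with only those groups in the fit. With YAP/TAZ + ESR1 against control they stayed between 14 and 17. Calls of other transporters for YAP/TAZ + ESR1 against control fell to 7 without YAP/TAZ + ESR1 replicate 2 or control replicate 2, and those of mTORC1 sensing genes against control lay between 3 and 10 for either hairpin, between 3 and 8 for YAP/TAZ + ESR1 and between 1 and 7 for ESR1 when single arrays were left out, with 0 for ESR1 with only those groups in the fit. The cause of these moves was not tested. SLC1A4 and, in 3 groups, SLC6A14 lie near the dim level, which limits what their low values show.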
